A study of Mus musculus with 8 samples.

Results

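The genes described here encode the DNA replication machinery of the mouse, measured in kidney with and without a knockdown of Keap1 and with and without ischemia-reperfusion injury. The set was drawn up from gene function and holds 50 genes: the 6 subunits of the MCM2-7 helicase, 2 other MCM proteins, 5 partners of the helicase, 9 origin recognition and licensing factors, 2 subunits of the origin-firing kinase, 6 genes of the sliding clamp and its loader, 9 polymerase and primase subunits, 3 subunits of the single-strand binding protein, 2 enzymes of Okazaki fragment maturation, 4 genes of chromatin assembly and protein turnover at the fork, and 2 enzymes of nucleotide synthesis. Its members were chosen with earlier results of these data known, so shares set beside all genes are not an independent test. Array probes were assigned to the 50 genes through RefSeq accessions. A probe was found for 49 of the 50, and all 49 were among the 20581 genes tested. Rpa1, the large subunit of the single-strand binding protein, had no matched probe and was not analysed here. Of the 49, 45 were well above background on all 8 arrays.

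Replication starts at origins that are bound by the origin recognition complex and then loaded with the MCM helicase by Cdc6 and Cdt1. In S phase a kinase, Cdc45 and the GINS complex switch the helicase on, and primase and the DNA polymerases copy both strands behind it, held to the template by the PCNA clamp. Most genes of this machinery are targets of E2F transcription factors and are transcribed as cells enter S phase, and in the adult kidney few cells divide until injury, after which surviving tubule cells re-enter the cycle.

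Kidneys came from male mice aged 16 weeks, either wild type (WT) or with a Keap1 knockdown (KD). In the injured groups (IRI) the artery and vein of the left kidney were clamped for 45 min, the right kidney was left alone, and the left kidney was taken 1 day later. In the normal groups the left kidney was taken without that surgery, so no sham-operated group is part of these comparisons. Each of the 4 groups has 2 arrays, and each array received whole-kidney RNA labelled with Cy3, starting from 300 ng of total RNA. The labels do not give the knockdown allele, the strain or the cells that carry the knockdown, and whether the 2 arrays of a group come from separate animals is not given, so the p-values speak only of the spread seen between arrays. Arrays with number 1 lie on one slide and arrays with number 2 on another, per the file headers.

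Signals are given in log2 units relative to the 75th percentile of their array. Keap1, which marks the transcription factor NRF2 for degradation, read 2.75 and 2.66 on the WT normal arrays, 1.5 and 1.40 on KD normal, 2.66 and 2.50 on WT IRI, and 1.33 and 1.04 on KD IRI. Both knockdown groups lay below both wild-type groups, by 1.25 ± 0.12 (SE) without injury and by 1.39 ± 0.12 after it (limma, adjusted p = 0.004 and 0.00546). Havcr1, the tubule injury marker KIM-1, was 8.96 ± 0.37 higher in WT IRI than in WT normal. Of 10 proximal tubule marker genes tested, all were above the 75th percentile of the array in both normal groups, and 9 fell after injury in WT. Between 62.1% and 67.8% of the spots of an array were well above background, none was saturated, and the 2 arrays of a group correlated across genes with r from 0.989 to 0.994.

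Promoter sequence of 3 of the genes with large rises after injury is shown because E2F recognition letters are the known common feature of replication gene promoters. Each is the stretch of 250 bases before the RefSeq start site on assembly GRCm38.p6, read along the gene's strand, with capitals marking E2F letters (the run TTCGCGC, the run TTGGCGC, the run TTCCCGC or the run TTGCCGC, on either strand) and the CCAAT box bound by NF-Y (CCAAT, on either strand).
Uhrf1 promoter, chr17:56303087-56303336, plus strand: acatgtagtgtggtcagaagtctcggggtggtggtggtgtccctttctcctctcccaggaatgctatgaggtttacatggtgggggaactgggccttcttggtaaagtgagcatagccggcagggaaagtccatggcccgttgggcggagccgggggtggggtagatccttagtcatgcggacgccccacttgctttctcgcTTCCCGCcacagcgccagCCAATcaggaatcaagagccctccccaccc
Dtl promoter, chr1:191575545-191575794, minus strand: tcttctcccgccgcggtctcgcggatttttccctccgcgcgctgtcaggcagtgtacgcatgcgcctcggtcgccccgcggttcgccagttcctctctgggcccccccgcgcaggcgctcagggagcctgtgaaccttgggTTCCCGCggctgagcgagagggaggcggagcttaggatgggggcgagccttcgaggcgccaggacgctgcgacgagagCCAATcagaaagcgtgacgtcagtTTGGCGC
Mcm5 promoter, chr8:75109259-75109508, plus strand: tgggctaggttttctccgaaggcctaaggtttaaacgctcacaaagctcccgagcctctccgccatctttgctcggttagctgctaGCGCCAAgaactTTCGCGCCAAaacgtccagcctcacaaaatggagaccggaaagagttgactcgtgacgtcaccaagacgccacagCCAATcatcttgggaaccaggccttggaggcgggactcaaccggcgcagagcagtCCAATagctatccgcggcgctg
The Uhrf1 stretch, from the first of 2 start sites listed for that gene, holds 1 E2F match from -48 to -42 relative to the start and 1 CCAAT match from -30 to -26. The Dtl stretch holds E2F matches from -109 to -103 and from -7 to -1, and a CCAAT match from -31 to -27. In the Mcm5 stretch, 2 of its 3 E2F matches overlap each other on opposite strands, from -152 to -146 and from -149 to -143, and the other lies from -164 to -158.

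Over the window from 250 bases before to 50 bases after the start, E2F letters were present for 29 of the 42 genes of the set with a listed promoter, Rpa1 included (69%), against 10.9% of all 27025 genes with a promoter, 13.7% of 17492 protein-coding genes and 9.57% of the 32851 promoters taken singly. A CCAAT box was present for 26 of the 42 (61.9%), against 41.1% of all genes and 42.3% of coding genes. The cell cycle homology region TTTGAA was present for 7 (16.7%, against 20.2% of all genes), and the NRF2 recognition letters TGACNNNGC for 9 (21.4%, against 14% of all genes and 14.8% of coding genes), both searched on both strands. Among the 33 genes with a listed promoter that rose after injury in WT, 25 held E2F letters, and 4 of the 8 that did not pass the test there held them (Orc1, Orc3, Orc4 and Rpa3). These are matches of letters in a window and not sites of binding.

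Injury of WT kidney raised the replication genes as a body. Of the 49, 39 were higher in WT IRI than in WT normal and none was lower (limma, adjusted p under 0.05), against 45.9% of all genes tested passing in either direction and 20.6% being higher. The median log2 change of the 49 was 1.37 (1.57 on slide 1 and 1.18 on slide 2), beside -0.08 over all genes. Both WT IRI arrays lay above both WT normal arrays for 43 of the 49, as for 33.5% of all genes, and below them for Orc3 and Orc5. The change was above 0 on both slides for 44, as for 36.8% of all genes. In whole kidney, a larger share of cells in S phase and more message per cell cannot be told apart. Markers of other cells moved as well: 7 of 9 neutrophil, 11 of 14 monocyte and macrophage and 11 of 11 tubule injury genes were higher. In the same comparison 1 monocyte and macrophage gene was lower, as were 3 of 8 lymphocyte genes. The part of these markers in the result was not tested.

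The rise was larger in number and size in KD kidney. In KD IRI against KD normal, 45 of the 49 were higher and none lower, against 59.3% of all genes passing and 27.5% being higher, with a median log2 change of 2.67 (2.65 and 2.49 on the 2 slides). All but Orc1, Orc3, Orc4 and Orc5 passed. Both KD IRI arrays lay above both KD normal arrays for 46 of the 49, as for 37.2% of all genes. In the same comparison 7 of 9 neutrophil, 12 of 14 monocyte and macrophage and 11 of 11 tubule injury genes were higher. Of the monocyte and macrophage genes 1 was lower. Of 8 lymphocyte genes 3 were higher and 1 was lower, with a median of 0.07, and 4 of the 8 changes were negative. All 10 proximal tubule genes were lower, and the part of these markers in the result was not tested. The difference between the 2 injury responses was tested as an interaction: 32 of the 49 responded more in KD and none less, against 6.6% of all genes passing, 3.79% in that direction and 2.81% in the other, with a median of 1.24 (1.01 on slide 1 and 1.52 on slide 2). It was above 0 on both slides for 47 of the 49, as for 35% of all genes. The 2 injury responses and the interaction share arrays, so these counts are not separate pieces of evidence. The count of 32 was not kept without WT normal 1, WT normal 2, KD IRI 1, KD IRI 2 or KD normal 2. Each of these fits leaves 1 array in a group, and most or all of the 32 no longer passed. Without KD normal 2 the calls were not all upward. The median over the 49 stayed between 1.19 and 1.28 in these fits.

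**Figure D1:**
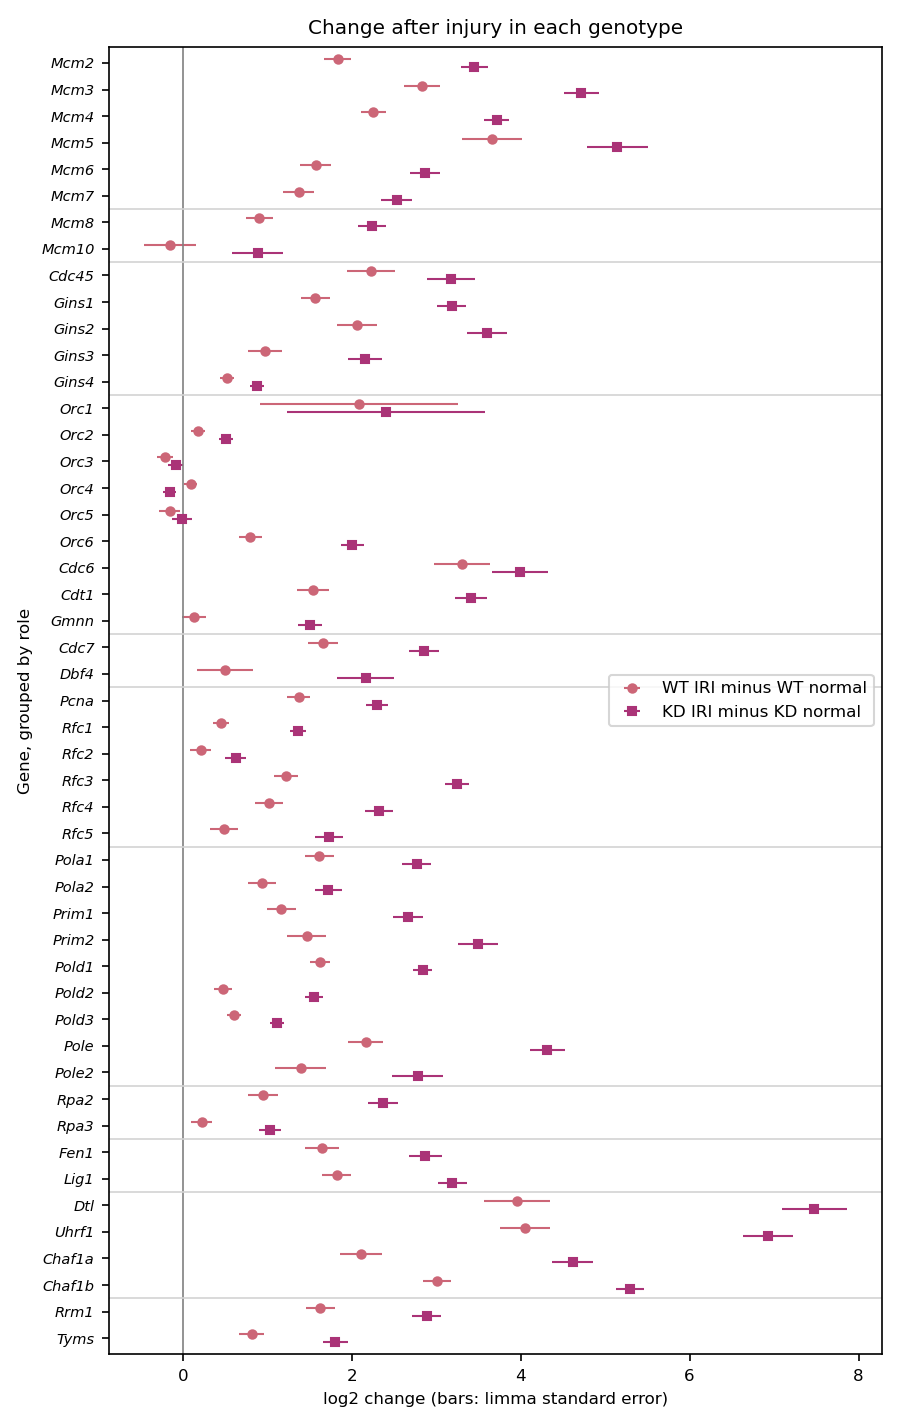
Log2 change after injury of each of the 49 genes, grouped by role, in WT (circles, WT IRI minus WT normal) and KD (squares, KD IRI minus KD normal); bars are limma standard errors, 2 arrays per group. The KD change lies to the right of the WT change for 48 of the 49 genes, all but Orc4. The 4 genes of chromatin assembly and turnover reach from 4.61 to 7.47 in KD. Cdc45, Orc1, Cdc6 and Dtl include arrays not well above background.

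The genotypes were also compared within each state. Without injury, 12 of the 49 were lower in KD than in WT and 1 was higher, against 15.2% of all genes passing, 8.78% lower and 6.4% higher. The median log2 difference was -0.44 (-0.43 on both slides), beside -0.03 over all genes. The 12 were Cdt1, Gmnn, Rfc1, Rfc3, Prim2, Pold1, Pole, Rpa3, Dtl, Uhrf1, Chaf1a and Chaf1b, and the 1 was Orc4. Both KD normal arrays lay below both WT normal arrays for 34 of the 49, as for 34.5% of all genes, and above them for 6, as for 29.9%. The difference was below 0 on both slides for 36, as for 40.3% of all genes. Lymphocyte markers moved with this difference, with 3 of 8 lower in KD normal and a median of -1.23. Of 11 tubule injury genes 3 were higher, with a median of 0.52, and of 12 genes of other nephron segments 4 were lower and 1 was higher. Of the neutrophil genes, 0 of 9 passed, with a median of 0.04 on slide 1 and 2.12 on slide 2. Their part in the result was not tested. The count of 13 fell to 1 without WT normal 1, 0 without WT normal 2 (17 at an unadjusted p under 0.05), 8 without KD normal 1 and 6 without KD normal 2, and was 23 without either WT IRI array.

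At day 1 after injury, 30 of the 49 were higher in KD IRI than in WT IRI and none was lower, against 7.11% of all genes passing and 3.69% being higher. All 49 differences were above 0 on both slides, as for 31.7% of all genes, with 41% of all genes below 0 on both, and they ranged from 0.09 for Orc3 to 1.61 for Uhrf1, with a median of 0.93 (0.66 on slide 1 and 1.21 on slide 2). Both KD IRI arrays lay above both WT IRI arrays for 47 of the 49, with Orc3 and Orc5 the exceptions, as for 25.7% of all genes. None of 9 neutrophil, 14 monocyte and macrophage or 8 lymphocyte genes passed in this comparison, while 1 of 11 tubule injury genes was higher and 3 of 10 proximal tubule genes were lower. The count of 30 was 0 without KD IRI 1 or KD IRI 2 (40 and 38 at an unadjusted p under 0.05), 2 and 3 without WT normal 1 or WT normal 2, and 0 when only these 4 arrays were fitted (44 at an unadjusted p under 0.05), while the median over the 49 stayed between 0.92 and 0.93 in these fits.

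**Figure D2:**
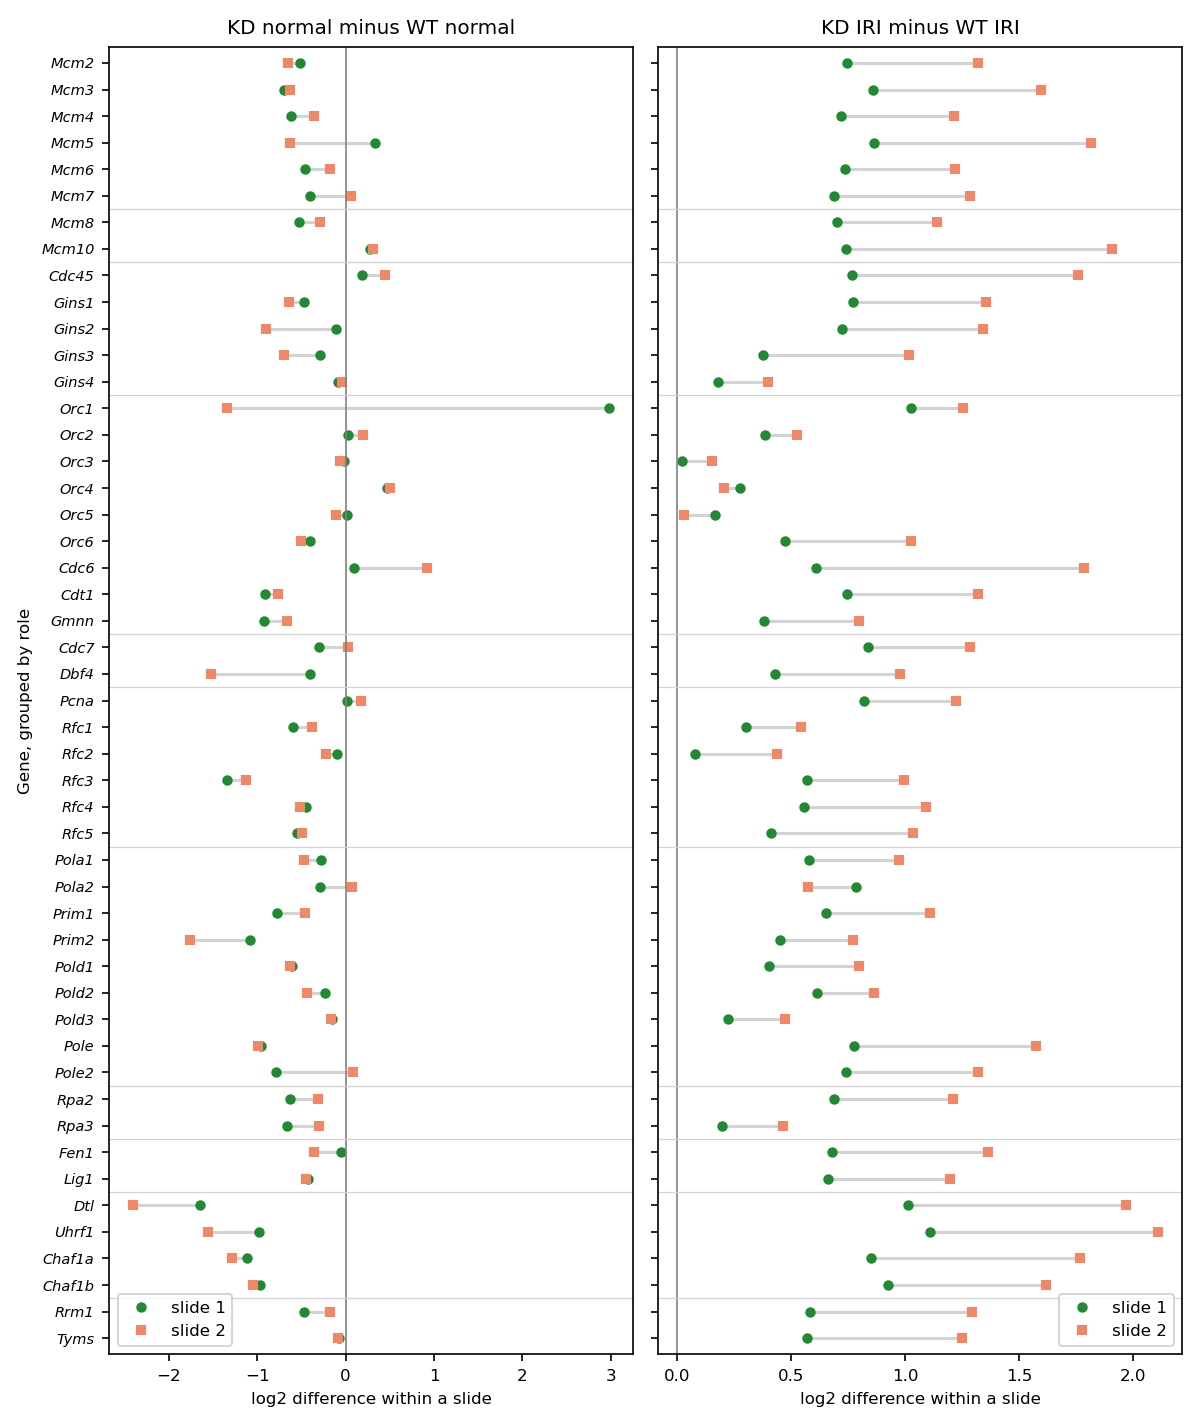
Difference between KD and WT within slide 1 (circles) and slide 2 (squares) for each of the 49 genes, without injury (left) and after injury (right), in log2. After injury every gene lies above 0 on both slides, with medians of 0.66 on slide 1 and 1.21 on slide 2; without injury 36 genes lie below 0 on both slides and 6 lie above 0 on both.

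The 2 WT IRI arrays stood apart from each other. WT IRI 1 was higher than WT IRI 2 for 46 of the 49 genes, by a median of 0.47, while the array numbered 1 exceeded the array numbered 2 by medians of 0.03 (WT normal) and 0.01 (KD normal) and differed by -0.05 in KD IRI. Over all genes WT IRI 1 was higher for 53.1%. On the same 2 arrays the median tubule injury marker stood 3.21 and 4.41 above the WT normal mean, and the median proximal tubule marker stood at -1.55 and -2.14. Fitted against WT IRI 2 alone, 38 of the 49 passed as higher in KD IRI (3.18% of all genes higher), and against WT IRI 1 alone 24 passed (3.14%). In these fits the lone array is assumed to vary like the other groups.

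**Figure D3:**
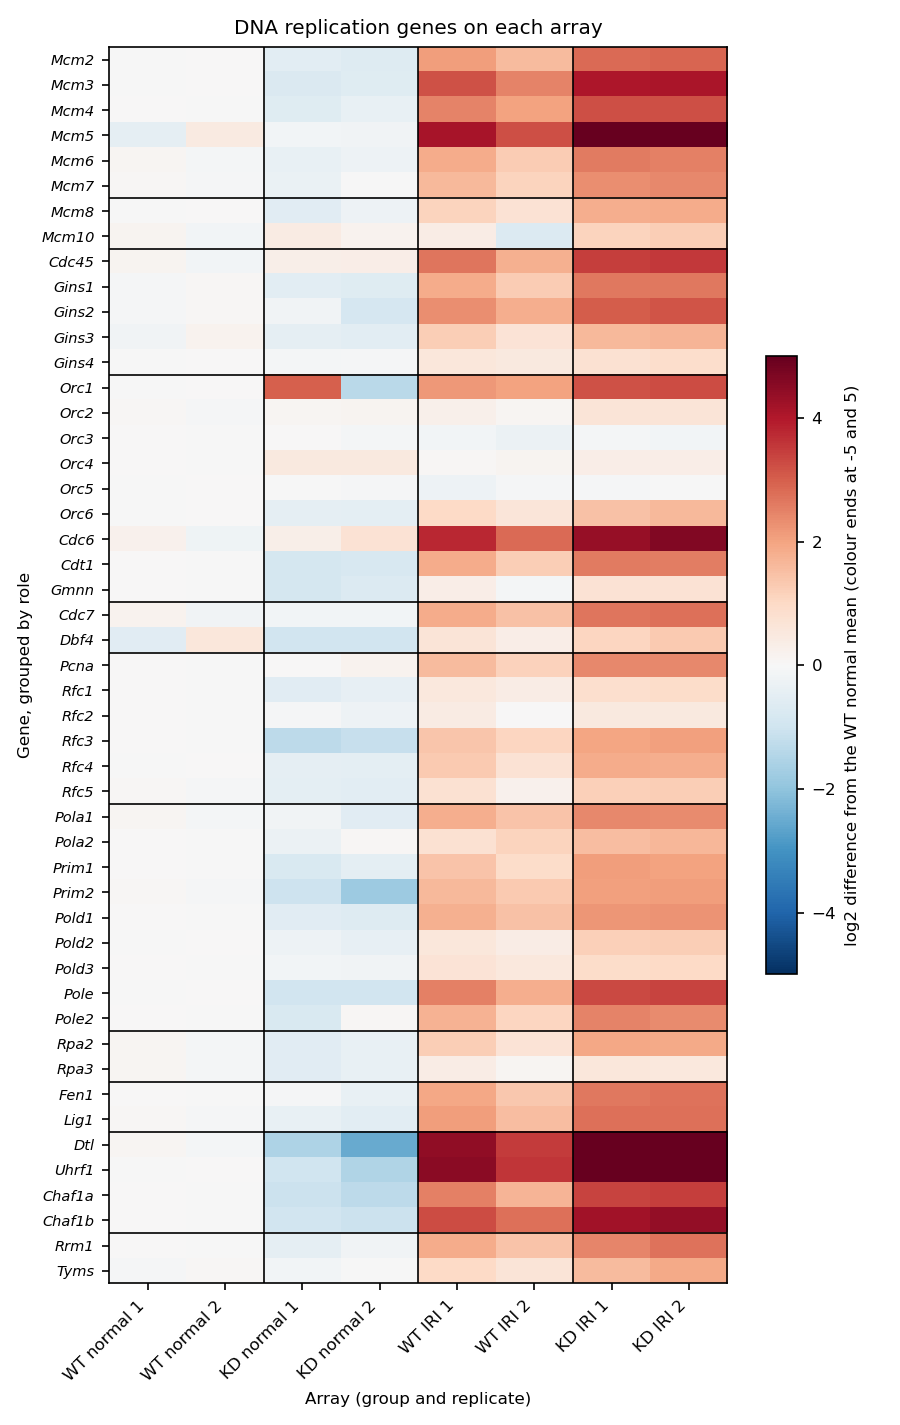
Log2 difference of each of the 49 genes (rows, grouped by role) from its WT normal mean on each of the 8 arrays (columns). Across the 49 genes the median is 0.02 and -0.02 on the WT normal arrays, -0.46 and -0.40 on the KD normal arrays, 1.62 and 1.11 on the WT IRI arrays, and 2.20 and 2.25 on the KD IRI arrays; red is higher and blue lower.

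Group means stood in one order, KD normal below WT normal below WT IRI below KD IRI, for 40 of the 49 genes (81.6%), an order found for 12.3% of all genes tested. Every array kept that order for 31 genes (63.3%, against 4.64%). The 9 genes with another order of means were Mcm10, Cdc45, Orc1, Orc2, Orc3, Orc4, Orc5, Cdc6 and Pcna.

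**Figure D4:**
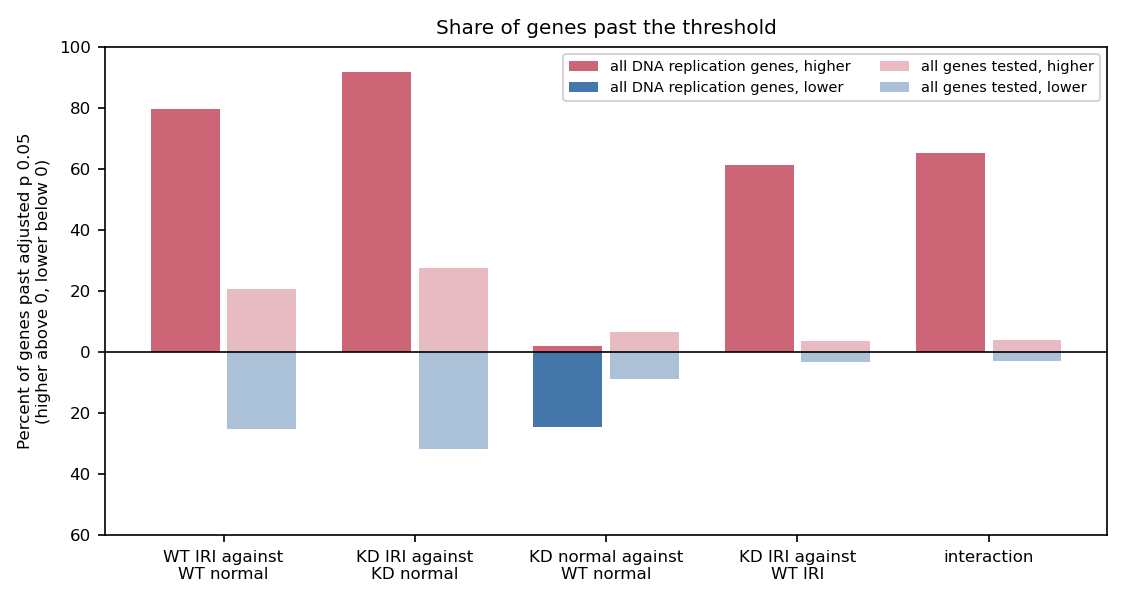
Percent of the 49 replication genes (full colour) and of all 20581 genes tested (pale) past an adjusted p of 0.05 in 5 comparisons, higher above 0 and lower below 0. In KD IRI against WT IRI the bars stand at 61.2% of the replication genes higher and none lower, beside 3.69% and 3.42% of all genes.

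The MCM2-7 proteins form the ring of the replicative helicase. All 6 of their genes rose after injury in WT, by 1.37 for Mcm7 to 3.66 for Mcm5, beside 20.6% of all genes. All 6 rose in KD, by 2.53 to 5.15, beside 27.5% of all genes. Mcm5 read -1.94 and -1.01 on the WT normal arrays, -1.61 and -1.63 on KD normal, 2.65 and 1.73 on WT IRI, and 3.51 and 3.54 on KD IRI. The 2 WT normal arrays of Mcm5 differ by almost a unit, and every IRI array lies above all 4 normal arrays. Its change was 3.66 ± 0.36 in WT, a 12.7-fold rise (limma, adjusted p = 0.000404), and 5.15 ± 0.36 in KD, a 35.4-fold rise. Mcm5 was the 1 of the 6 that did not pass between the injured groups (1.34 ± 0.36, adjusted p = 0.0701) or in the interaction.

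Mcm3 read -2.39 and -2.35 on the WT normal arrays, -3.08 and -2.98 on KD normal, 0.82 and 0.11 on WT IRI, and 1.68 and 1.70 on KD IRI. Its 4 groups do not overlap and stand in the order given above. It rose 7.13-fold in WT and 26.3-fold in KD, and KD IRI exceeded WT IRI by 1.23 ± 0.21 (limma, adjusted p = 0.0242; 0.86 on slide 1 and 1.59 on slide 2). Mcm7 read 1.70 and 1.55 on the WT normal arrays, 1.30 and 1.61 on KD normal, 3.26 and 2.73 on WT IRI, and 3.95 and 4.02 on KD IRI. The normal groups of Mcm7 overlap, and its rise was 1.37 ± 0.18 in WT and 2.53 ± 0.18 in KD. For Mcm2, Mcm4 and Mcm6 the rise in WT was 3.56, 4.78 and 2.97-fold and that in KD was 10.9, 13.1 and 7.28-fold. None of the 6 passed in KD normal against WT normal, beside 15.2% of all genes, and their changes there ran from -0.66 to -0.15.

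**Figure D5:**
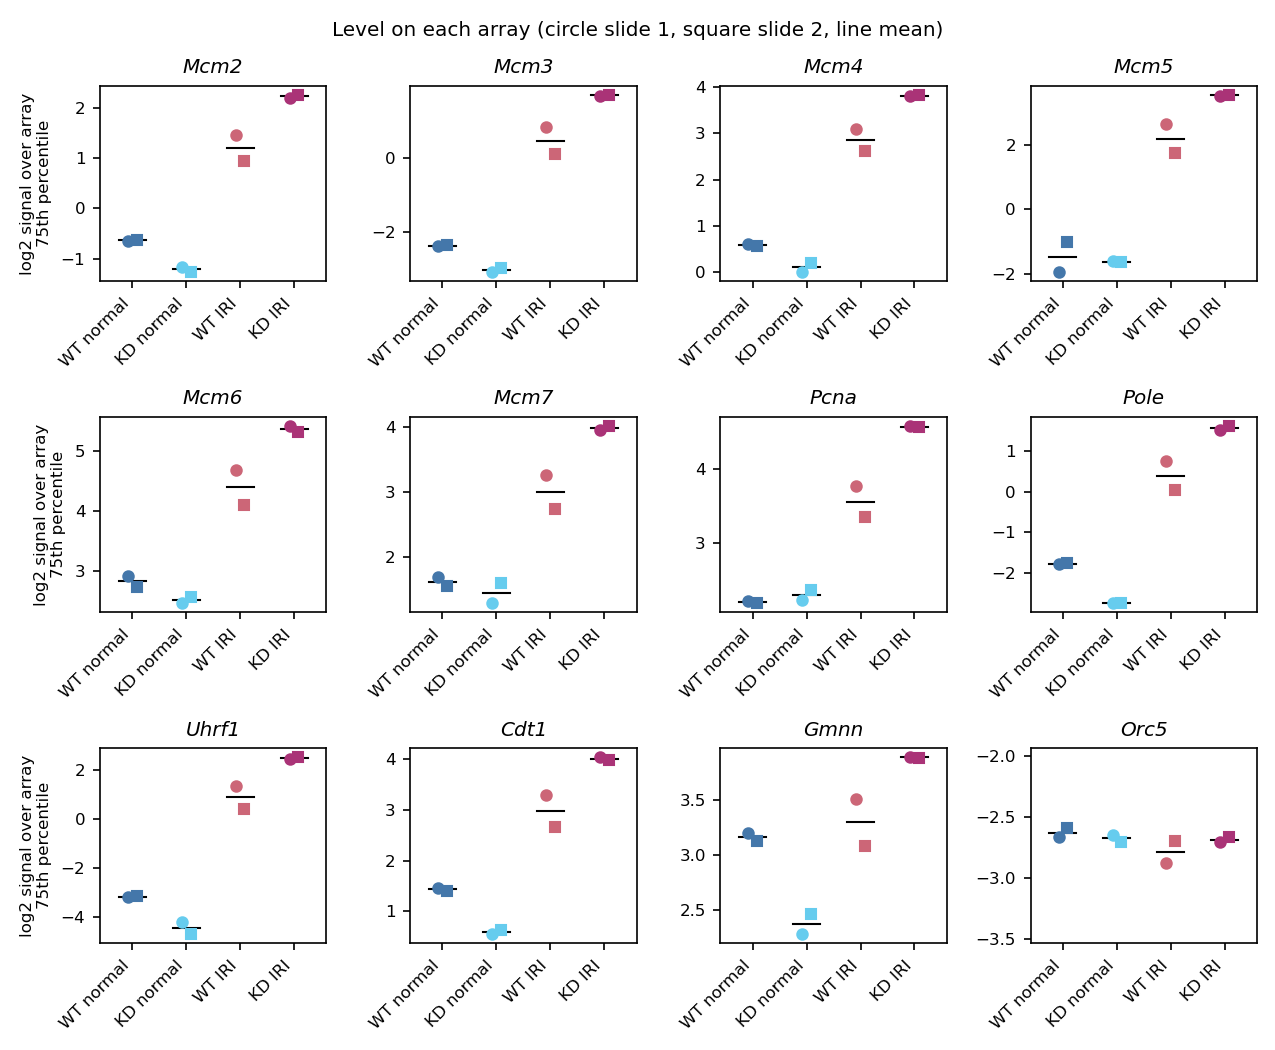
Log2 signal, relative to the 75th percentile of the array, for 12 of the genes (circle, slide 1; square, slide 2; line, group mean), each panel with its own vertical scale; levels are not compared between panels. The 6 MCM2-7 genes, Pcna, Pole, Uhrf1 and Cdt1 are higher on all 4 IRI arrays than on the normal arrays, Gmnn is lowest in KD normal, and Orc5 stays within -2.88 to -2.59.

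The other MCM proteins parted. Mcm8, which works with Mcm9 in homologous recombination, read -2.21 and -2.13 on the WT normal arrays, -2.74 and -2.43 on KD normal, -1.07 and -1.46 on WT IRI, and -0.37 and -0.32 on KD IRI. It rose by 0.91 ± 0.16 in WT (limma, adjusted p = 0.00422) and by 2.24 ± 0.16 in KD. The difference of 1.33 ± 0.23 between these passed (limma, adjusted p = 0.0287). Another probe of Mcm8, well above background on 4 of the 8 arrays, was tested singly. It gave 0.64 in WT, which did not pass (limma, adjusted p = 0.212), and 2.35 in KD, which did (adjusted p = 0.00166). Its interaction of 1.71 did not pass (limma, adjusted p = 0.107). Mcm10, which helps to activate the loaded helicase, read 0.82 and 0.57 on the WT normal arrays, 1.09 and 0.87 on KD normal, 1.07 and 0.02 on WT IRI, and 1.81 and 1.92 on KD IRI. Its WT IRI arrays lie on either side of the WT normal arrays, with a change of -0.15 ± 0.31 (adjusted p = 0.716), and in KD it rose by 0.89 ± 0.31 (adjusted p = 0.0411). The difference between these, 1.03 ± 0.43, did not pass (adjusted p = 0.189), and the KD call was lost in 10 of 23 alternatives.

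Cdc45 and the GINS proteins complete the active helicase. All 5 of their genes rose after injury in both genotypes, beside 20.6% of all genes in WT and 27.5% in KD. Cdc45, well above background on 1 of the 2 WT normal arrays, read -4.69 and -4.93 on the WT normal arrays, -4.50 and -4.49 on KD normal, -2.12 and -3.04 on WT IRI, and -1.35 and -1.29 on KD IRI. It rose by 2.23 ± 0.28 in WT and 3.18 ± 0.28 in KD, and KD IRI exceeded WT IRI by 1.26 ± 0.28 (adjusted p = 0.0466), while the interaction of 0.95 ± 0.40 did not pass (adjusted p = 0.193) and its KD normal arrays were not below those of WT normal. Gins4 read 0.47 and 0.48 on the WT normal arrays, 0.39 and 0.44 on KD normal, 1.06 and 0.95 on WT IRI, and 1.24 and 1.35 on KD IRI. Its rise was the smallest of the 5, 0.53 ± 0.082 in WT and 0.88 ± 0.082 in KD. Gins1, Gins2 and Gins3 rose by 1.57, 2.06 and 0.97 in WT and by 3.19, 3.6 and 2.16 in KD, and Gins1 and Gins2 passed in the interaction.

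Of the 9 origin recognition and licensing genes, 3 rose after injury in WT (Orc6, Cdc6 and Cdt1), beside 20.6% of all genes, and 5 rose in KD (these 3, Orc2 and Gmnn), beside 27.5%. Between genotypes 3 passed without injury (Orc4 higher, Cdt1 and Gmnn lower), 3 after injury and 3 in the interaction. The shares of all genes passing in these comparisons were 15.2%, 7.11% and 6.6%. Orc1, Orc3 and Orc5 passed nowhere. Orc3 and Orc5 are subunits of the complex that marks origins. Orc3 stayed between 0.16 and 0.50 and Orc5 between -2.88 and -2.59 over the 8 arrays. Orc4 read 0.32 and 0.28 on the WT normal arrays, 0.78 and 0.79 on KD normal, 0.34 and 0.44 on WT IRI, and 0.62 and 0.64 on KD IRI. Its KD normal arrays lie above all other arrays, and KD normal exceeded WT normal by 0.49 ± 0.076 (limma, adjusted p = 0.0115). The 2 other probes of Orc4 gave 0.51 and -0.14 for that difference when probes were tested singly, so its probes disagree in sign. After injury in KD the probe at 0.51 changed by -0.71 and passed (adjusted p = 0.00167). The probe at -0.14 changed by -0.20 and did not pass (adjusted p = 0.182).

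Orc2, another subunit, was 0.46 ± 0.084 higher in KD IRI than in WT IRI (adjusted p = 0.0276), with a change of 0.18 ± 0.084 after injury in WT (adjusted p = 0.126). Orc6 rose by 0.80 ± 0.14 in WT and 2.00 ± 0.14 in KD. Orc1 was not well above background on either WT normal array, and its KD normal arrays read -3.43 and -7.75, and no change of Orc1 passed (SE of 1.17).

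Cdc6, which loads the helicase, read -5.77 and -6.19 on the WT normal arrays, -5.68 and -5.26 on KD normal, -2.22 and -3.13 on WT IRI, and -1.61 and -1.35 on KD IRI. It was not well above background on either WT normal array, and all 4 IRI arrays lie above all 4 normal arrays. Its rise in WT was at least 5.36-fold (adjusted p = 0.000437), taking -5.08 and -5.11 as the floors of the WT normal arrays. That bound is approximate, as dim signals of Dtl lay above those floors. In KD the fitted change was 3.99 ± 0.33, with 1 of the 2 KD normal arrays not well above background. Cdc6 entered the test only through its IRI arrays, which favours a rise. Both of its rises also passed with no filter on dim probes. Cdt1, its partner in loading, read 1.46 and 1.40 on the WT normal arrays, 0.55 and 0.64 on KD normal, 3.29 and 2.66 on WT IRI, and 4.04 and 3.97 on KD IRI, with all 4 groups apart. It fell by 0.84 ± 0.19 in uninjured KD kidney (adjusted p = 0.0296), rose 2.91-fold in WT and 11-fold in KD, and gave an interaction of 1.87 ± 0.26 (adjusted p = 0.0199). Gmnn encodes geminin, the inhibitor of Cdt1. In WT its change after injury was 0.13 ± 0.14 (adjusted p = 0.482), in KD normal it was lower than in WT normal by 0.79 ± 0.14 (adjusted p = 0.0161), and in KD it rose by 1.51 ± 0.14.

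Cdc7 and its activator Dbf4 form the kinase that fires origins. Cdc7 read -3.84 and -4.19 on the WT normal arrays, -4.15 and -4.16 on KD normal, -2.18 and -2.53 on WT IRI, and -1.34 and -1.25 on KD IRI. The IRI arrays of both genotypes lie above all normal arrays, with rises of 1.66 ± 0.18 in WT and 2.86 ± 0.18 in KD. A second probe of Cdc7 read -7.36 and -2.63 on the WT normal arrays and -7.64 and -4.57 on the KD normal arrays, and its change of 0.47 in WT, tested singly, did not pass (adjusted p = 0.822). With normexp background correction the interaction of Cdc7 turned negative. Dbf4 read -3.16 and -2.03 on the WT normal arrays, -3.56 and -3.55 on KD normal, -1.94 and -2.25 on WT IRI, and -1.51 and -1.27 on KD IRI. Its 2 WT normal arrays differ by more than a unit and overlap those of WT IRI, and its WT change of 0.50 ± 0.34 did not pass (adjusted p = 0.262), KD IRI lay above KD normal by 2.17 ± 0.34 (adjusted p = 0.00138), and the interaction did not pass (adjusted p = 0.0862).

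PCNA is the sliding clamp and the RFC proteins load it. Pcna read 2.20 and 2.17 on the WT normal arrays, 2.22 and 2.35 on KD normal, 3.77 and 3.35 on WT IRI, and 4.59 and 4.57 on KD IRI. KD normal lies just above WT normal, and KD IRI stands above WT IRI on both slides (0.82 on slide 1 and 1.22 on slide 2). Pcna rose 2.59-fold in WT (adjusted p = 0.000404) and 4.92-fold in KD, and KD IRI exceeded WT IRI by 1.02 ± 0.13 (adjusted p = 0.0145). It differed between KD and WT by 0.10 ± 0.13 without injury (adjusted p = 0.667), and its interaction was 0.93 ± 0.19 (adjusted p = 0.0401).

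Among the loader genes, Rfc3 had the largest difference without injury. Rfc3 read -2.34 and -2.37 on the WT normal arrays, -3.68 and -3.49 on KD normal, -0.95 and -1.30 on WT IRI, and -0.38 and -0.30 on KD IRI. All 4 groups are apart, with KD normal lower than WT normal by 1.23 ± 0.14 (limma, adjusted p = 0.00624). Over the alternatives run, that difference ranged from -1.33 to -0.26 and the interaction of Rfc3 from 0.78 to 2.19. The rise of Rfc3 was 2.34-fold in WT and 9.47-fold in KD. Rfc2 read 3.88 and 3.83 on the WT normal arrays, 3.79 and 3.61 on KD normal, 4.25 and 3.89 on WT IRI, and 4.33 and 4.33 on KD IRI. Its WT IRI arrays lie just above those of WT normal, with a change of 0.21 ± 0.12 (adjusted p = 0.203), and KD IRI lay 0.63 ± 0.12 above KD normal (adjusted p = 0.00426), while the interaction did not pass (adjusted p = 0.193). Rfc1, Rfc4 and Rfc5 rose by 0.46, 1.02 and 0.49 in WT and by 1.37, 2.32 and 1.73 in KD, and all 3 passed in KD IRI against WT IRI and in the interaction. Rfc5 in WT passed narrowly (adjusted p = 0.0492).

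By the probe used for each, all 9 polymerase and primase genes rose after injury in both genotypes. Of all genes 20.6% rose in WT and 27.5% in KD. Pole, the catalytic subunit of the leading strand polymerase epsilon, read -1.78 and -1.76 on the WT normal arrays, -2.74 and -2.74 on KD normal, 0.75 and 0.044 on WT IRI, and 1.52 and 1.62 on KD IRI. Its 4 groups do not overlap, with KD normal lower than WT normal by 0.97 ± 0.21 (adjusted p = 0.0262) and KD IRI above WT IRI by 1.18 ± 0.21 (adjusted p = 0.0253; 0.78 on slide 1 and 1.57 on slide 2). The rise of Pole was 4.48-fold in WT and 19.9-fold in KD. Pold2, a subunit of the lagging strand polymerase delta, read -1.14 and -1.07 on the WT normal arrays, -1.38 and -1.5 on KD normal, -0.52 and -0.73 on WT IRI, and 0.09 and 0.14 on KD IRI, and its rise of 0.48 ± 0.11 was the smallest of the 9 in WT (adjusted p = 0.00972). Pold1, the catalytic subunit of delta, rose 3.08-fold in WT and 7.15-fold in KD and was lower in KD normal by 0.61 ± 0.12. The probes of Pold3 disagreed without injury, at -0.16 for the one used and -0.71 and -0.10 for the others. Tested singly, the probe at -0.71 passed there (adjusted p = 0.0212) and in the interaction (1.31, adjusted p = 0.0224), where the probe used did not. After injury in WT it gave 0.32 and did not pass (adjusted p = 0.11). The probe at -0.10 gave 0.94 in WT and passed (adjusted p = 0.00148).

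Primase makes the RNA primers. Prim2, its large subunit, read -1.0 and -1.09 on the WT normal arrays, -2.08 and -2.85 on KD normal, 0.57 and 0.27 on WT IRI, and 1.02 and 1.04 on KD IRI. The KD normal arrays are the lowest, by 1.42 ± 0.24 against WT normal (adjusted p = 0.0134; -1.08 on slide 1 and -1.76 on slide 2), and the rise was 2.76-fold in WT and 11.3-fold in KD. After injury KD exceeded WT by 0.61 ± 0.24, which did not pass (adjusted p = 0.154). Prim1, the catalytic subunit, and Pola1 and Pola2, the polymerase alpha subunits that extend the primers, rose by 1.17, 1.62 and 0.94 in WT and by 2.67, 2.77 and 1.72 in KD. Pole2 rose by 1.40 and 2.78.

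Replication protein A coats single strands. Rpa2 read -0.76 and -0.92 on the WT normal arrays, -1.39 and -1.23 on KD normal, 0.40 and -0.17 on WT IRI, and 1.08 and 1.04 on KD IRI. It rose by 0.95 ± 0.18 in WT (adjusted p = 0.00529) and 2.37 ± 0.18 in KD, with all IRI arrays above all normal arrays. Rpa3 read 0.079 and -0.08 on the WT normal arrays, -0.58 and -0.38 on KD normal, 0.37 and 0.079 on WT IRI, and 0.56 and 0.54 on KD IRI. Its WT IRI and WT normal arrays overlap (0.22 ± 0.13, adjusted p = 0.192), KD normal was lower than WT normal by 0.48 ± 0.13 (adjusted p = 0.0481), and KD IRI was 1.03 ± 0.13 above KD normal.

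Fen1 and Lig1 trim and seal Okazaki fragments. Lig1 read 0.89 and 0.74 on the WT normal arrays, 0.46 and 0.29 on KD normal, 2.91 and 2.37 on WT IRI, and 3.57 and 3.57 on KD IRI. Fen1 read -1.17 and -1.19 on the WT normal arrays, -1.22 and -1.54 on KD normal, 0.77 and 0.17 on WT IRI, and 1.45 and 1.53 on KD IRI. For both genes KD IRI lies above WT IRI on both slides and all IRI arrays lie above all normal arrays. Lig1 rose 3.54-fold in WT and 9.14-fold in KD, Fen1 3.13-fold and 7.33-fold, and KD IRI exceeded WT IRI by 0.93 ± 0.17 for Lig1 (adjusted p = 0.0271) and 1.02 ± 0.20 for Fen1 (adjusted p = 0.0314). The interaction passed for Lig1 and not for Fen1 (adjusted p = 0.0508).

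Of the genes that act on chromatin and proteins at the fork, 4 were measured. In the fit all 4 were lower in KD normal than in WT normal, Dtl from arrays not above background, beside 8.78% of all genes. All 4 rose in both genotypes, beside 20.6% of all genes in WT and 27.5% in KD. All 4 passed upward in the interaction, beside 3.79% of all genes. Uhrf1, which reads hemimethylated DNA and recruits the maintenance methyltransferase, read -3.19 and -3.13 on the WT normal arrays, -4.17 and -4.68 on KD normal, 1.35 and 0.43 on WT IRI, and 2.46 and 2.54 on KD IRI. The groups are apart at every step, and the range from KD normal to KD IRI is 6.92. Uhrf1 was lower in KD normal by 1.26 ± 0.30 (limma, adjusted p = 0.0349), with -0.98 on slide 1 and -1.55 on slide 2. Over the alternatives run, that difference ranged from -1.52 to -0.063. Uhrf1 rose 16.6-fold in WT (limma, adjusted p = 0.00016) and 121-fold in KD. It was 3.05-fold higher in KD IRI than in WT IRI (limma, adjusted p = 0.0278), with log2 differences of 1.11 on slide 1 and 2.11 on slide 2.

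Chaf1a and Chaf1b encode the subunits of CAF-1, which places histones on new DNA. Chaf1a read -1.79 and -1.83 on the WT normal arrays, -2.90 and -3.12 on KD normal, 0.71 and -0.12 on WT IRI, and 1.56 and 1.65 on KD IRI. Chaf1b read -1.48 and -1.48 on the WT normal arrays, -2.45 and -2.54 on KD normal, 1.78 and 1.28 on WT IRI, and 2.70 and 2.90 on KD IRI. Neither has overlapping groups. Their rise was 4.31 and 8.07-fold in WT and 24.5 and 39.3-fold in KD, they were lower in KD normal by 1.20 ± 0.25 and 1.01 ± 0.16, and they were higher in KD IRI by 1.31 ± 0.25 and 1.27 ± 0.16 (limma, adjusted p = 0.0287 and 0.0135). Their interactions were 2.51 ± 0.35 and 2.28 ± 0.23.

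Dtl, the receptor of the ubiquitin ligase that destroys Cdt1 on PCNA-loaded chromatin, read -4.79 and -5.01 on the WT normal arrays, -6.44 and -7.42 on KD normal, -0.48 and -1.42 on WT IRI, and 0.54 and 0.55 on KD IRI. No normal array of either genotype was well above background, so no fold is given between them, although the fitted difference passed (adjusted p = 0.0196) and changed sign with normexp background correction. Its fitted rise in WT was 15.5-fold (limma, adjusted p = 0.000403), a value taken from dim WT normal arrays and not a lower bound. In KD the rise was at least 65.8-fold (limma, adjusted p = 2.25e-05). Dtl entered the test only through its IRI arrays, which favours a rise. Both of its rises also passed with no filter on dim probes. The fitted interaction of Dtl depends on those dim normal arrays. A second probe of Dtl, well above background on 2 of the 8 arrays, gave 0.69 in WT when tested singly, which did not pass (adjusted p = 0.288). It gave 2.98 in KD (adjusted p = 0.00176). That probe entered the test through the KD IRI arrays, where it read -4.51 and -4.63. Its passing in KD therefore cannot decide whether Dtl rose there.

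Rrm1, the large subunit of ribonucleotide reductase, read -0.17 and -0.20 on the WT normal arrays, -0.64 and -0.38 on KD normal, 1.66 and 1.23 on WT IRI, and 2.24 and 2.52 on KD IRI. Tyms, thymidylate synthase, read 1.06 and 1.17 on the WT normal arrays, 0.99 and 1.08 on KD normal, 2.12 and 1.75 on WT IRI, and 2.69 and 3.0 on KD IRI. For both, the IRI arrays lie above the normal arrays and KD IRI lies above WT IRI. Rrm1 rose 3.09-fold in WT and 7.41-fold in KD and Tyms 1.76-fold and 3.5-fold, both were higher in KD IRI than in WT IRI (by 0.94 ± 0.17 and 0.91 ± 0.15, adjusted p = 0.0267 and 0.0227), and neither passed without injury (adjusted p = 0.237 and 0.746).

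Other replication factors outside the set were described from a list of 23 genes. After injury 20 rose in WT and 21 in KD, beside 20.6% and 27.5% of all genes, and none fell. In KD IRI 9 were higher than in WT IRI, beside 3.69% of all genes. In the interaction 10 passed, all upward, beside 3.79% of all genes. In KD normal against WT normal 5 were lower and 1, Top1, was higher, beside 8.78% and 6.4% of all genes. Top2a, the topoisomerase that untangles finished chromosomes, and Chtf18, of an alternative clamp loader, had the largest interactions, 2.99 ± 0.43 and 2.53 ± 0.40. Top2a rose by 2.39 ± 0.31 in WT, and in KD normal it was not well above background and at least 2.73-fold lower than in WT normal (adjusted p = 0.0203), a difference that changed sign with normexp background correction, as did that of Chtf18. Dscc1, of the same loader, rose by 3.84 ± 1.26 in WT and 5.48 ± 1.26 in KD, where 1 of the 2 KD normal arrays was not well above background. Mcm9, the partner of Mcm8, changed by 0.37 ± 0.13 in WT and did not pass (adjusted p = 0.0591).

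Of 10 genes of chromatin assembly and maintenance, 7 rose after injury in WT and 8 in KD, beside 20.6% and 27.5% of all genes. In KD IRI 8 were higher than in WT IRI, beside 3.69% of all genes. In the interaction 6 passed, beside 6.6% of all genes, and none passed in KD normal against WT normal, beside 15.2%. Asf1b, a histone chaperone that hands histones to CAF-1, rose by 2.94 ± 0.26 in WT and 5.04 ± 0.26 in KD, and Hells, a chromatin remodeller that works with Uhrf1 in DNA methylation, by 2.70 ± 0.24 and 4.50 ± 0.24. The paralogue Asf1a read 1.83 and 1.85 on the WT normal arrays, 2.12 and 2.12 on KD normal, 1.72 and 1.99 on WT IRI, and 2.30 and 2.22 on KD IRI. Its WT IRI arrays lie on either side of its WT normal arrays (0.013 ± 0.10, adjusted p = 0.928).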

How the data were processed

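Whole-kidney RNA was hybridised to 8 one-colour Agilent arrays, 2 in each of 4 groups. The deposited scanner intensity values were made with Feature Extraction 10.7.3.1, per the file headers; the processed signal is background-corrected. The deposited series value table holds log2 values whose scale and centring are not stated in the labels; its columns correlated with the scaled, probe-centred signals with r from 0.99995 to 0.99997, and it was used as an alternative. Each array's log2 processed signal was scaled to its 75th percentile. Control spots were left out, and a probe stayed in if some group had it well above background on both of its arrays (27409 of 41174). Orc1, Cdc6, Dtl and E2f7 met that rule only in the injured groups, which favours a rise in them. With no filter on dim probes, 38 of the 49 rose after injury in WT and 44 in KD. Genes were taken from RefSeq accessions and represented by their brightest probe, giving 20581 genes, 14105 of them with a symbol. One limma model (R 4.3.3, limma 3.58.1) over 8 arrays, with an intensity trend, gave 5 contrasts with Benjamini-Hochberg adjustment over all genes and 4 residual degrees of freedom. The fit was tested on simulated data. Precision is limited by the number of arrays.

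The members and gene lists were chosen with earlier results of these data known. Array values were printed in full for the genes with the largest and smallest change after injury in WT within each role and for up to 6 genes with the largest change in each genotype comparison (without and after injury) and in the interaction, 27 in all; Cdt1 was added after its values were seen. The signal column normexp needs as a mean was not among the columns used, and the median signal took its place. Alternatives were other background correction, normalization, filters, probe rules, variance models, thresholds, slide and replicate blocks, the deposited table and leaving out each array.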

Additional observations from a re-analysis of the deposited data

Results flagged for a closer look

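The response to injury differed between KD and WT, by the interaction test with adjusted p under 0.05, for 32 of the 49 replication genes, all with the larger response in KD. The log2 difference between the responses was 3.52 for Dtl, 2.87 for Uhrf1, 2.51 for Chaf1a, 2.28 for Chaf1b, 2.15 for Pole, 2.03 for Prim2, 2.02 for Rfc3, 1.89 for Mcm3, 1.87 for Cdt1, 1.62 for Gins1 and 1.62 for Mcm2. It was 1.54 for Gins2, 1.5 for Prim1, 1.46 for Mcm4, 1.42 for Rpa2, 1.38 for Gmnn, 1.37 for Lig1, 1.33 for Mcm8, 1.30 for Rfc4, 1.29 for Mcm6, 1.26 for Rrm1 and 1.24 for Rfc5. For the rest it was 1.22 for Pold1, 1.20 for Orc6, 1.20 for Cdc7, 1.16 for Mcm7, 1.15 for Pola1, 1.07 for Pold2, 0.99 for Tyms, 0.93 for Pcna, 0.91 for Rfc1 and 0.81 for Rpa3. The value for Dtl rests on normal arrays that were not well above background.

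Among the genes of the other lists, the same test passed with a larger response in KD at 2.99 for Top2a, 2.53 for Chtf18, 2.10 for Asf1b, 1.80 for Hells, 1.96 for E2f7, 1.91 for Ccna2, 1.42 for Dck, 0.91 for Dut and 0.95 for Vcam1. It passed with a negative difference at -0.61 for E2f5, -0.79 for Rbl2, -1.03 for Slc27a2 and -1.78 for Slc5a12. The value for E2f7 rests on normal arrays of which none was well above background and read -0.083 with normexp background correction, and Top2a was not well above background in KD normal. The causes were not tested.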

How the results depend on the processing

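The counts of replication genes past the threshold after injury, in either direction, stayed within 1.5 times of 39 in WT and 45 in KD under every alternative run. In KD they held 1 lower gene with the mean of all kept probes, with every probe singly and with median centring. Without WT IRI 1, a fit that leaves 1 array in that group, the WT calls were not all upward. In KD normal against WT normal the count of 13 became 8 with normexp background correction, and only 5 of the 13 were among them. It became 8 with no filter on dim probes, 21 with array weights, 20 with only the arrays compared and 6 with a fold of at least 2. Over all alternatives the difference shrank to -0.26 for Rfc3, -0.063 for Uhrf1, -0.46 for Chaf1a, -0.44 for Chaf1b and -0.39 for Pole. In KD IRI against WT IRI the count of 30 became 11 with no filter, 15 with no intensity trend, 0 with only the arrays compared (44 at an unadjusted p under 0.05 in limma) and 12 with a fold of at least 2. In the interaction the count of 32 became 13 with no filter and 19 with no intensity trend. Leaving out 1 array gave 0 to 23, 0 to 38 and 0 to 38 in these 3 comparisons, against 36 to 41 and 44 to 45 for injury in WT and KD. Of the single genes called, 35 of 39 and 44 of 45 passed after injury in WT and KD in every such fit, and in the other 3 comparisons none passed in all of them; none changed sign. The causes were not tested. The replicate number as a block equals the slide as a block. That block gave 39 for injury in WT, 13 in KD normal against WT normal and 33 in KD IRI against WT IRI. It gave 45 for injury in KD and 30 in the interaction. Samples of the same number correlated by 0.0216 to 0.262 in their deviations over 12 pairs. With 2 arrays per group the deviations mirror each other. Each value therefore recurs for both numbers, and the 12 pairs are not independent. Centring on the median, chosen after seeing the data, gave 38, 12, 33, 45 and 30.

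Single genes changed sign in few cases. With quantile normalization Umod read 0.30 after injury in WT and 0.25 in KD. With normexp, under which the median of all genes was 0.20, 0.15, -0.22, -0.34 and -0.31 (-0.080, -0.027, -0.042, -0.080 and -0.0010 otherwise) for injury in WT, genotype without injury, genotype after injury, injury in KD and the interaction, Cd3g read 0.60 after injury in WT. In KD normal against WT normal it gave 0.58 for Dtl, 0.23 for Wdhd1, 0.21 for Top2a, 0.085 for Chtf18 and 0.63 for Gzma. After injury in KD it gave -0.46 for Cdk2, -0.00244 for Mcm9, -0.35 for Ms4a1, -0.84 for Gzma and -0.38 for Epb42, and in the interaction -0.23 for Cdc7, -0.083 for E2f7, -0.95 for Clspn and -0.21 for Recql4. Signal over background limits Orc1, Cdc6 and Dtl in the normal groups, and Cdc45 on 1 of the 2 WT normal arrays.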

Other observations

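Of a list of 29 genes that control the step into S phase, 27 were tested. After injury 16 rose and 3 fell in WT, with a median log2 change of 0.56, beside 20.6% and 25.2% of all genes. In KD 16 rose and 4 fell, beside 27.5% and 31.8% of all genes. E2f7, an E2F repressor made in S phase, was not well above background in the normal groups. It entered the test only through its IRI arrays, which favours a rise. The rise of E2f7 was at least 8.56-fold in WT and at least 28.3-fold in KD (limma, adjusted p = 0.00014 and 1.84e-05). Rbl2, a pocket protein of quiescent cells, fell by 0.60 ± 0.11 in WT and 1.39 ± 0.11 in KD, and E2f5, a partner of such proteins, fell by 0.55 ± 0.087 and 1.15 ± 0.087. Cdkn1a, which encodes the cyclin-dependent kinase inhibitor p21, read -3.03 and -2.50 on the WT normal arrays, -0.51 and 0.84 on KD normal, 0.60 and 1.41 on WT IRI, and 1.18 and 1.42 on KD IRI. Its KD normal arrays lie above its WT normal arrays, by 2.92 ± 0.46 (adjusted p = 0.0115), and injury raised it by 3.76 ± 0.46 in WT (adjusted p = 0.000895). In KD the change after injury of 1.14 ± 0.46 did not pass (adjusted p = 0.0675), nor did the interaction of -2.63 ± 0.65 (adjusted p = 0.0608).

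Of a list of 19 genes of nucleotide supply, 17 were tested. In WT 10 of the 17 rose after injury and 4 fell, beside 20.6% of all genes higher and 25.2% lower. In KD IRI 6 were higher than in WT IRI and none was lower, beside 3.69% and 3.42% of all genes. Dctd, which makes dUMP, was among the risers at no less than 3.88-fold in WT, and Cad, which starts pyrimidine synthesis, rose by 1.45 ± 0.10 (adjusted p = 0.000127). Rrm2b, the ribonucleotide reductase subunit of resting cells, fell by 0.99 ± 0.15 (adjusted p = 0.0022).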
